A study of Sus scrofa domesticus with 6 samples.

Results

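Cells of a transplanted pig lung were sorted on CD45, the surface protein of white blood cells encoded by PTPRC, and the 2 sides of the sort were sequenced separately. The comparison described here set the 2 libraries of CD45-positive cells (CD45+ 1 and CD45+ 2) against the single library of CD45-negative cells (CD45-). These are 3 of the 6 libraries of the series. After cells with under 500 UMIs (unique molecular identifiers, the tags by which captured transcripts are counted) were set aside, the 3 libraries held 23667 of the 41545 cells of the series, namely 4538 and 4076 cells on the positive side and 15053 cells on the negative side.

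The series used a single-lung allotransplant model in pigs. All 3 graft libraries came from lung that had been kept in cold ischemia for 24 hours and had then received 8 hours of reperfusion. The other 3 libraries were controls, made from the unsorted suspension of donor right lungs collected after retrograde perfusion. Libraries were made with a droplet kit (DNBelab C Series HT) after enzymatic dissociation, red cell lysis and, for the graft, staining for viability and sorting on CD45. According to the protocol, CD45+ cells came from 2 specimens and CD45- cells from 1. It does not say whether any specimen gave both fractions, so the side of the sort and the specimen cannot be told apart. Because the negative side has 1 library, whose own spread is unknown, no test was made, and every difference below is a description of 3 libraries.

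Reperfusion injury of a lung graft involves a dialogue between white blood cells and the cells that build the organ. Cytokines and chemokines are secreted signals that recruit and activate leukocytes, and they act only on cells that carry the matching receptor. Alveolar type 2 (AT2) epithelial cells, which make surfactant, can take part in this exchange, and fibroblasts and smooth muscle cells make most of the collagen matrix. Sorting on CD45 asks which of these compartments holds the transcripts of each signal, receptor, stress response and matrix component.

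UMIs were summed over all cells of a library and expressed as CPM (the UMIs of a gene per 1e+06 UMIs of the library) over the 27861 genes listed in all 3 graft libraries. A gene was compared when its level, averaged over the 2 sides, reached 5 CPM. It was counted on the CD45+ side when both CD45+ libraries stood at least 4-fold above the CD45- library, and on the CD45- side when that library stood at least 4-fold above both CD45+ libraries. A gene nearly absent from either side entered through the other side alone, so its call was fixed by this rule. This applies to such members of every gene list below. Members of a gene list that did not reach the limit were either below it or not listed in all 3 graft libraries. The 3 libraries held 19329145, 18922409 and 40385924 UMIs in kept cells, in the order CD45+ 1, CD45+ 2 and CD45-, and this order is used for every set of 3 values below. Values of the 3 controls are CPM over the genes listed in all 6 libraries, and no control was sorted. The controls held far less of the epithelial genes SFTPC and KRT8 than the CD45- library, as given at the end. A low control level of a gene held by epithelium therefore does not measure a response to injury.

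Of 9912 genes compared, 719 (7.25%) were counted on the CD45+ side and 1116 (11.3%) on the CD45- side, and 8077 on neither. The median log2 fold of the CD45+ side over the CD45- side was 0.27 over all compared genes. The 2 CD45+ libraries differed from each other by over 4-fold at 142 genes (1.43%), and their median absolute log2 ratio was 0.28 against 0.84 between the sides. Large folds were found mainly on the CD45- side. On the CD45- side 608 genes exceeded 16-fold against both CD45+ libraries and 265 exceeded 64-fold, whereas on the CD45+ side 4 genes exceeded 16-fold and 0 exceeded 64-fold.

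**Figure D1:**
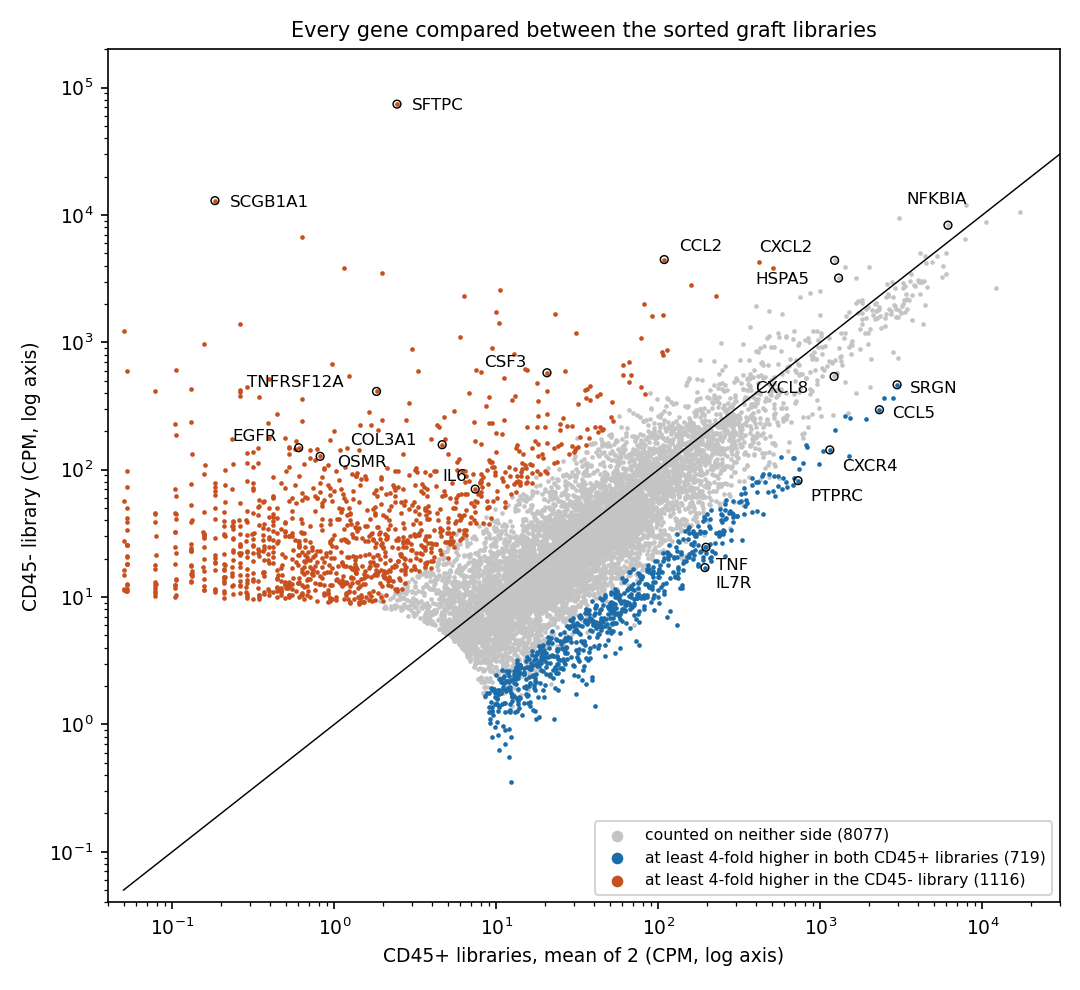
Level of each compared gene in the CD45- library (vertical axis, CPM, log scale) against its mean over the 2 CD45+ libraries (horizontal axis, CPM, log scale); each point is 1 of 9912 genes, coloured by the side on which it was counted, and the line marks equal levels. The 1116 genes of the CD45- side spread farther from that line than the 719 genes of the CD45+ side.

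The purity of the libraries differed in the same direction. PTPRC, which the sort itself selected and which is therefore no finding, stood at 804 and 651 CPM in the CD45+ libraries and at 82.0 CPM in the CD45- library, folds of 9.81 and 7.93. Clusters on the leukocyte side made up 14.2% of the cells (2143) and 12.4% of the UMIs of the CD45- library. Structural clusters made up 3 cells (0.0661%) and 5 cells (0.123%) of the CD45+ libraries. The CD45- library thus held a leukocyte fraction, whereas the CD45+ libraries held next to no structural cells. With leukocyte clusters left out of the CD45- sum and structural clusters out of the CD45+ sums, PTPRC folds were 42.45 and 34.35. Those of TNF were then 30.95 and 43.17. Leaving clusters out lowers leukocyte genes in the CD45- sum and structural genes in the CD45+ sums by construction. A gene that passes the limit only in this way is therefore no further finding. The folds and the counts past 16-fold given above are those of the whole libraries, and the cause of their uneven sizes was not tested.

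Clustering of the 3 libraries together gave 32 clusters, of which 21 carried a cell-type name from marker genes (all names end in "-like" because they rest on RNA alone). Several genes described below were themselves naming markers, among them CCL21, COL3A1, DCN, AGER, JCHAIN, CCR7, CSF1R, CSF3R, KDR and PDGFRB. Their shares by class, and their levels with clusters left out, therefore follow in part from the naming and are no independent finding. The CD45- library was led by AT2-like cells (6775 cells, 45.0%), with 1190 ciliated-like, 1104 secretory-like, 618 smooth muscle or pericyte-like, 502 endothelial-like, 375 alveolar type 1 (AT1)-like, 366 fibroblast-like and 223 lymphatic endothelial-like cells. AT2-like cells gave 43.2% of all UMIs of that library, against which their share of any gene's UMIs below is to be set. Its leukocytes included 404 T-like, 370 B-like, 363 natural killer (NK)-like, 208 neutrophil-like and 171 monocyte or macrophage-like cells. Both CD45+ libraries were rich in T-like cells (1056 and 700) and NK-like cells (925 and 579). They differed in monocyte or macrophage-like cells, which gave 2.27% of cells and 6.44% of UMIs in CD45+ 1 but 10.9% of cells and 23.5% of UMIs in CD45+ 2. One unnamed leukocyte cluster, cluster 3 with 1507 cells, was led by G0S2, SLAMF7, GPR84 and OLR1. Its best marker match was neutrophil, but its leading genes did not carry that name. In sums over a library, a gene's level rises both with the number of cells of a type and with the RNA per cell, and these cannot be told apart.

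Transcripts of AT2 cells were also present in droplets of other cell types in the CD45- library. SFTPC, which encodes surfactant protein C and marks AT2 cells, stood at 2.02, 2.85 and 74152 CPM. With each cell thinned to 500 UMIs, 96.8% of all CD45- cells held an SFTPC UMI (exact Clopper-Pearson 95% interval 96.5 to 97.0), including 380 of 404 T-like cells (94.1%), 95.6% of fibroblast-like cells and 97.8% of endothelial-like cells, against 100% of AT2-like cells. The level by class graded more steeply than the share of cells. T-like cells of that library held SFTPC at 5.08% of the AT2-like level, NK-like cells at 6.4%, secretory-like cells at 10.2%, ciliated-like cells at 14.6%, fibroblast-like cells at 23.3% and endothelial-like cells at 41.0%. In T-like cells of the CD45+ libraries 0 of 1056 and 0 of 700 held a UMI at that depth, which allows shares of up to 0.349% and 0.526%. All intervals cover counting error only. Within a class of the CD45- library, a gene may stand at the same percentage of its AT2-like level as SFTPC. By this ratio its UMIs cannot be told apart from AT2 transcripts in droplets of other cells. Such a gene may also be expressed in the class, which was not tested. The ratio is given beside several class levels below.

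Among 66 interleukins and other cytokines, 49 were listed in all 3 graft libraries and 27 reached the level limit. Of these 12 were counted on the CD45+ side and 3 on the CD45- side, where 7.25% and 11.3% of all compared genes were. Their median log2 fold was 2.11, against 0.27 over all genes. The CD45+ members were the pro-inflammatory cytokines TNF and IL1A, the lymphotoxin subunit LTB, the regulatory cytokine IL10, the chemoattractant IL16, IL27, and the TNF-family ligands TNFSF9, TNFSF8, TNFSF14, TNFSF13B, FASLG and CD40LG. The 3 on the CD45- side were CSF3, CSF2 and IL6. IL1B was not listed under that name in all 3 graft libraries and could not be compared.

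TNF stood at 164, 229 and 24.6 CPM, so that both CD45+ libraries were above the CD45- library, by 6.68 and 9.31 times. Neutrophil-like cells held 48.3%, 49.9% and 44.0% of its UMIs, at 2663, 1908 and 1264 CPM within the class. The share was thus similar in all 3 libraries, while the level within the class was lowest in the CD45- library. How leukocytes came to be in that library was not tested. When the leukocyte clusters were left out of the CD45- sum and the structural clusters out of the CD45+ sums, TNF fell to 5.31 CPM in the CD45- library against 164 and 229 CPM. IL1A stood at 144, 231 and 20.8 CPM (6.93 and 11.09 times), and its UMIs came chiefly from monocyte or macrophage-like cells (36.0%, 53.0% and 33.2%). LTB stood at 233, 154 and 24.7 CPM, led by T-like cells, and IL10 at 47.0, 76.8 and 7.78 CPM.

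CSF3, encoding granulocyte colony-stimulating factor, which drives neutrophil production and release, showed the opposite pattern. It stood at 9.99, 31.1 and 577 CPM, 57.8 and 18.6 times higher in the CD45- library, with 2.74 to 4.01 CPM in the controls. The controls also held far less SFTPC than the CD45- library, and an effect of injury on CSF3 was not tested. AT2-like cells held 71.0% of the 23044 CSF3 UMIs of the CD45- library, at 947 CPM within the class. In T-like cells CSF3 stood at 3.59% of the AT2-like level, below the 5.08% of SFTPC, whereas secretory-like cells held 3.23 times the percentage of SFTPC. CSF2, encoding granulocyte-macrophage colony-stimulating factor, stood at 2.90, 1.85 and 55.9 CPM (19.3 and 30.2 times), and AT2-like cells held 75.2% of its UMIs. The few CSF2 UMIs of the CD45+ libraries came mainly from NK-like cells (82.1% and 40.0%).

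IL6, an inducer of the acute phase response, stood at 4.40, 10.4 and 70.4 CPM (16.01 and 6.76 times), against 11.2 to 13.7 CPM in the controls. Most of it lay outside the AT2-like class. Fibroblast-like cells held 65.9% of the IL6 UMIs of the CD45- library at 2560 CPM within the class, compared with 21.0 CPM in AT2-like cells. Smooth muscle or pericyte-like cells stood at 177 CPM and endothelial-like cells at 152 CPM, 20.8 and 17.7 times the percentage that SFTPC reached in those classes.

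Members counted on neither side included signals carried by both compartments and signals carried unevenly by the 2 CD45+ libraries. OSM, encoding oncostatin M, a relative of IL6 made by myeloid cells, stood at 167, 416 and 55.5 CPM, 3.02 and 7.51 times above the CD45- library, with 12.2 to 17.6 CPM in the controls. Its level was 2221 and 3940 CPM in cluster 3 of the CD45+ libraries. With the other side's clusters left out, OSM stood at 167, 417 and 32.8 CPM and passed the 4-fold limit. MIF, a cytokine that most cells hold, was nearly level at 260, 263 and 287 CPM. CSF1, the macrophage growth factor, stood at 239, 345 and 166 CPM.

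**Figure D2:**
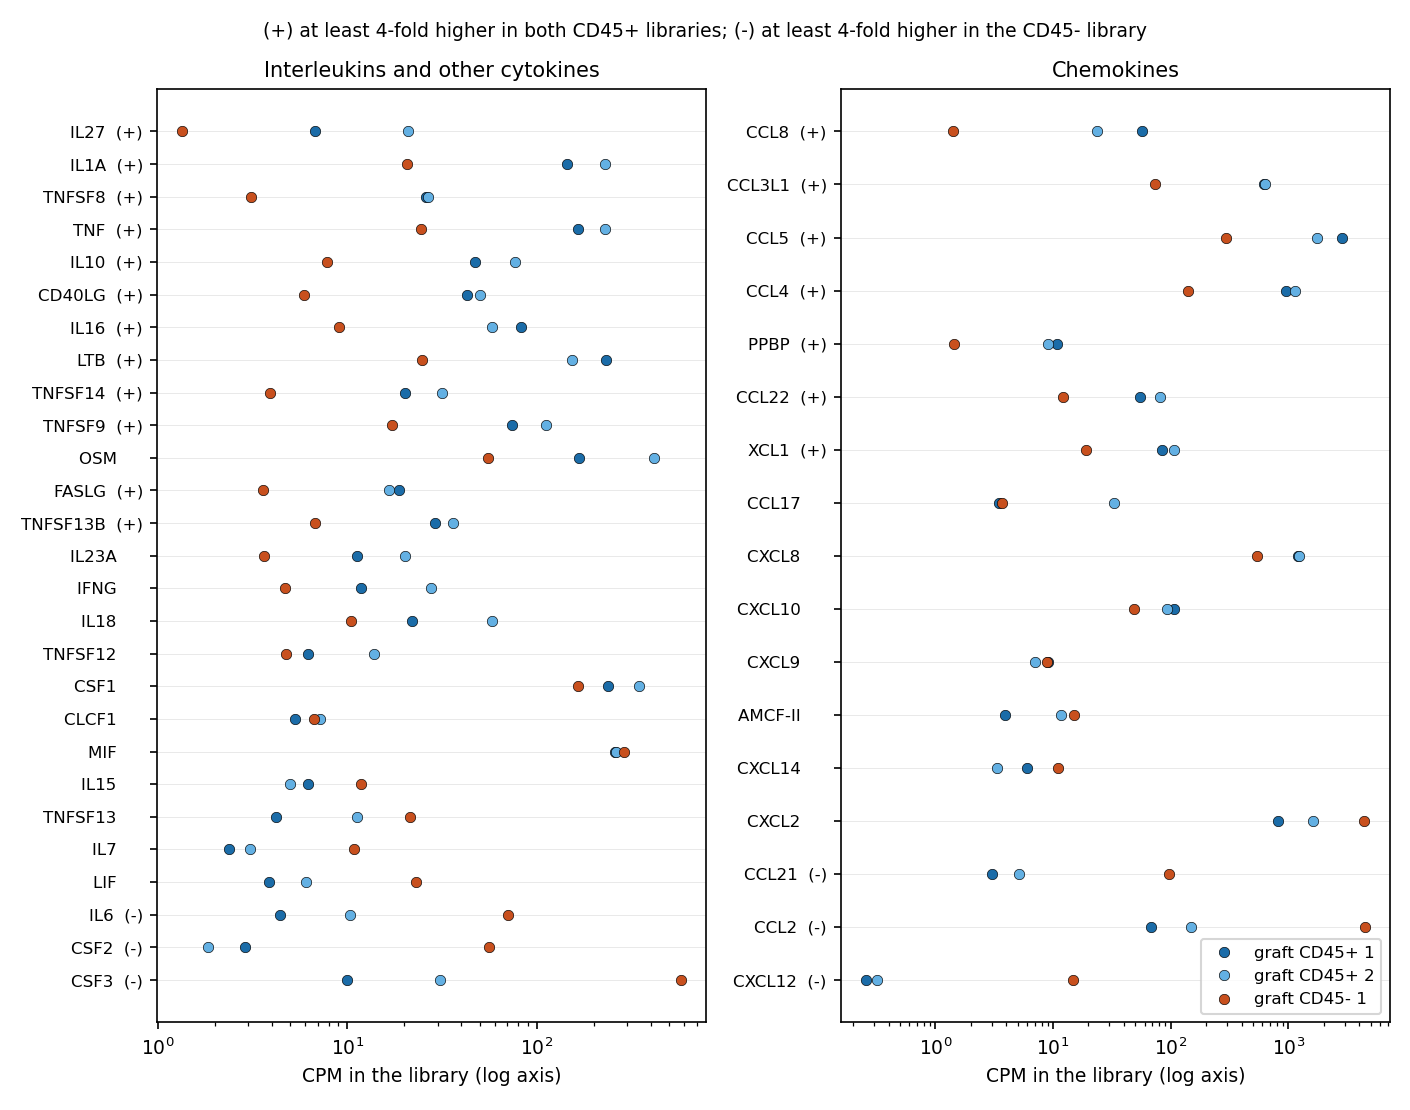
CPM (horizontal axis, log scale) of the 27 cytokines and 17 chemokines above the level limit; each point is 1 of the 3 graft libraries, and the signs in brackets give the side on which a gene was counted. TNF, IL1A and CCL5 lie higher in both CD45+ libraries than in the CD45- library, and CSF3, CSF2, IL6 and CCL2 lie lower.

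Of 36 chemokines, 23 were listed in all 3 graft libraries and 17 reached the level limit (median log2 fold 1.17). On the CD45+ side were 7 (41.2%, against 7.25% of all genes) and on the CD45- side 3 (17.6%, against 11.3%). CCL5, a chemokine made by cytotoxic lymphocytes, stood at 2867, 1760 and 296 CPM (9.70 and 5.96 times). NK-like cells held 57.1%, 52.6% and 46.4% of its UMIs, at 9659, 8955 and 9422 CPM within the class. NK-like cells of all 3 libraries thus held CCL5 at nearly the same level, and they made up 20.4%, 14.2% and 2.41% of the cells. The same class led XCL1, a ligand for cross-presenting dendritic cells (84.1, 107 and 19 CPM). CCL4 stood at 949, 1136 and 140 CPM and CCL3L1 at 616, 634 and 73.4 CPM. CCL22, which attracts CCR4-bearing T cells, stood at 54.4, 81.4 and 12.2 CPM, with 95.3%, 57.4% and 85.9% of its UMIs in dendritic-like cells. Among the 7 members of that side CCL8 showed the largest folds, at 57.4, 23.5 and 1.40 CPM (41.0 and 16.8 times), and monocyte or macrophage-like cells held at least 85.7% of its UMIs in each library. PPBP was the seventh member on that side.

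CCL2, the main attractant of CCR2-bearing monocytes, was the most abundant chemokine of the CD45- library. It stood at 67.8, 150 and 4464 CPM (65.8 and 29.9 times), and the controls stood at 215, 355 and 392 CPM. AT2-like cells held 56.6% of its 178388 UMIs at 5849 CPM, and fibroblast-like cells reached 18340 CPM, or 314% of the AT2-like level. Secretory-like and smooth muscle or pericyte-like cells stood at 3.80 and 3.05 times the percentage of SFTPC, whereas AT1-like cells stood at 1.08 times. T-like cells held CCL2 at 254 CPM in the CD45- library, 4.34% of the AT2-like level, but at 1.62 and 1.93 CPM in the CD45+ libraries. The CCL2 of the CD45+ libraries lay mainly in monocyte or macrophage-like cells (77.3% and 62.5%).

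The other 2 chemokines of the CD45- side were homeostatic ones with narrow sources. CCL21, which guides CCR7-bearing cells into lymph vessels, stood at 3.05, 5.18 and 97.6 CPM. Lymphatic endothelial-like cells, a class named in part by CCL21 itself, held 85.7% of its UMIs at 7926 CPM. CXCL12, the ligand of CXCR4, stood at 0.259, 0.317 and 14.9 CPM, from 5 and 6 UMIs in the CD45+ libraries, and 74.4% of its UMIs lay in secretory-like cells.

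The neutrophil attractants CXCL2 and CXCL8 were counted on neither side, and leukocytes and epithelium both held them. CXCL2 stood at 817, 1630 and 4398 CPM, 5.38 and 2.70 times higher in the CD45- library. Neutrophil-like cells held CXCL2 at 9803, 8813 and 8132 CPM, and AT2-like cells held it at 6400 CPM. The AT2-like class, the largest of the CD45- library, gave 62.9% of its CXCL2 UMIs. CXCL8 leaned the other way at 1202, 1227 and 539 CPM. Cluster 3 held 48% and 37.7% of the CXCL8 UMIs of the CD45+ libraries at 13760 and 14860 CPM. In the CD45- library CXCL8 was highest in the 115 cells of cluster 3 at 9551 CPM, and stood at 3456 CPM in neutrophil-like, 1112 CPM in secretory-like and 393 CPM in AT2-like cells, and the neutrophil-like value was 74.8 times the percentage of SFTPC.

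Of 46 growth factors 18 reached the level limit (median log2 fold -0.37), with 0 on the CD45+ side. The 5 on the CD45- side (27.8%, against 11.3% of all genes) were EREG, GDF15, BMP2, BMP4 and GAS6. EREG, encoding epiregulin, a ligand of the EGF receptor, stood at 11.2, 36.6 and 154 CPM (13.8 and 4.21 times). It was highest in AT1-like cells (823 CPM, 10.2 times the percentage of SFTPC) and ciliated-like cells (233 CPM). GDF15, a secreted stress marker, stood at 0.362, 0.264 and 45.5 CPM, from 7 and 5 UMIs in the CD45+ libraries. TGFB1 (254, 347 and 114 CPM) and the EGF-receptor ligand HBEGF (120, 307 and 303 CPM) were counted on neither side.

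Of 72 cytokine receptors 46 reached the level limit (median log2 fold 1.19). On the CD45+ side were 16 (34.8%, against 7.25% of all genes), and the 6 on the CD45- side (13%) were near the 11.3% of all genes. Receptors for the lymphocyte growth cytokines lay on the CD45+ side. IL7R, needed for T cell survival, stood at 198, 189 and 17.0 CPM (11.7 and 11.11 times), with 69.3%, 63.7% and 54.4% of its UMIs in T-like cells. IL2RG, the chain shared by several interleukin receptors, stood at 371, 389 and 46.2 CPM. IL2RB stood at 282, 214 and 26.7 CPM, led by NK-like cells, and IL2RA at 179, 196 and 19.5 CPM. CSF2RB, the signalling chain of the CSF2 receptor, stood at 274, 544 and 66.6 CPM (4.11 and 8.17 times), higher in the library with more monocyte or macrophage-like cells. CSF1R, the macrophage growth factor receptor, followed the same library (27.7, 125 and 6.33 CPM, 4.38 and 19.7 times). It passed the limit in CD45+ 1 only narrowly and lost it when cells were weighted equally.

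The 6 receptors of the CD45- side were TNFRSF12A, TNFRSF1A, IL1R1, OSMR, LTBR and LIFR. TNFRSF12A, the receptor of the TNF-family ligand TWEAK, stood at 2.64, 1.00 and 411 CPM (156 and 410 times), while the controls held 3.09 to 4.09 CPM. AT2-like cells held TNFRSF12A at 511 CPM and the unnamed epithelial cluster 14 at 684 CPM. T-like cells held 0.605 times the percentage of SFTPC. OSMR, the oncostatin M receptor, stood at 0.207, 1.43 and 127 CPM (615 and 89.1 times), and was 145 CPM in AT2-like, 179 CPM in secretory-like and 311 CPM in lymphatic endothelial-like cells. IL1R1, the signalling receptor for IL1A, stood at 16.5, 38.3 and 219 CPM (13.3 and 5.73 times), with 269 CPM in AT2-like and 536 CPM in fibroblast-like cells. TNFRSF1A, the broadly used TNF receptor, stood at 42.4, 61.7 and 337 CPM (7.95 and 5.46 times). TNFRSF1B, the other TNF receptor, stood at 896, 1362 and 719 CPM and was counted on neither side. Likewise IL4R (408, 456 and 558 CPM), IFNAR2 (156, 229 and 206 CPM) and IFNGR2 (121, 176 and 220 CPM) were held by both compartments.

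Chemokine receptors were found on the leukocyte side. Of 23 members 13 reached the level limit (median log2 fold 2.85). On the CD45+ side were 8 (61.5%, against 7.25% of all genes) and on the CD45- side 0 (against 11.3%). CXCR4 stood at 1221, 1066 and 143 CPM (8.54 and 7.46 times). In T-like cells CXCR4 was 1901, 2162 and 1799 CPM, again close in all 3 libraries. CCR7, which takes lymphocytes and dendritic cells to lymph nodes, stood at 780, 593 and 85.9 CPM. CCR2, the monocyte receptor, stood at 28.5, 56.5 and 5.88 CPM, and CCR9, CXCR5, CCR4 and CXCR3 also lay on that side. CCR1, shared by monocytes and neutrophils, stood at 72.7, 222 and 27.7 CPM and missed the limit in CD45+ 1. With the other side's clusters left out, 11 of 12 measured chemokine receptors lay on the CD45+ side. That step lowers leukocyte genes in the CD45- sum by construction, so this count is no further finding.

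Growth factor receptors showed the reverse. Of 43 members 28 reached the level limit (median log2 fold -1.13). On the CD45+ side were 0 (against 7.25% of all genes) and on the CD45- side 12 (42.9%, against 11.3%). Receptors near 0 in the CD45+ libraries, EGFR and MET among them, entered through the CD45- library alone, so the level limit fixed their call. EGFR, the epithelial growth factor receptor, stood at 0.466, 0.740 and 149 CPM (319 and 201 times). MET, the receptor of hepatocyte growth factor, stood at 0.155, 0.899 and 104 CPM. The 3 UMIs of MET in CD45+ 1 gave a ratio of 672 with a counting interval from 230 to 3258. FGFR1 stood at 3.47, 2.85 and 99.6 CPM, and its few UMIs in the CD45+ libraries lay mainly in dendritic-like cells (61.2% and 59.3%). KDR, the vascular endothelial growth factor receptor, stood at 0.414, 0.899 and 28.1 CPM, and PDGFRB, a pericyte receptor, at 1.76, 2.06 and 19.9 CPM. The TGF-beta receptors TGFBR1 (52.9, 54.0 and 58.0 CPM) and TGFBR2 (111, 112 and 118 CPM) were almost level.

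Of 68 ligand and receptor pairs listed, both genes were measured in 42. IL1B, CXCR1, CXCR2 and CSF2RA were not listed under those names in all 3 graft libraries, so their pairs were not measured. In 3 pairs the ligand was counted on the CD45+ side and the receptor on the CD45- side: IL1A with IL1R1, TNF with TNFRSF1A and LTB with LTBR. In another 3 the ligand was on the CD45- side and the receptor on the CD45+ side: CCL2 with CCR2, CXCL12 with CXCR4 and CCL21 with CCR7. Both genes were on the CD45+ side in 3 pairs, among them CCL22 with CCR4, and both on the CD45- side in 1 (EREG with EGFR). In 6 pairs a ligand of the CD45- side met a receptor counted on neither side, among them IL6 with IL6R (88.6, 101 and 94.5 CPM) and CSF3 with CSF3R (28.5, 73.3 and 8.63 CPM). With the other side's clusters left out, CSF3R stood at 28.5, 73.3 and 4.25 CPM and was counted on the CD45+ side. Among other pair genes OSM, IL10RA and MERTK then passed the limit on the CD45+ side, and LIF on the CD45- side. The pair counts are those before clusters were left out. In 8 pairs a ligand counted on neither side met a receptor of the CD45- side, among them OSM with OSMR and TNFSF12 with TNFRSF12A. TNFSF12, which encodes TWEAK, stood at only 6.21, 13.9 and 4.78 CPM. The pairs were chosen as known partners, and their transcripts say nothing of binding or signalling.

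**Figure D3:**
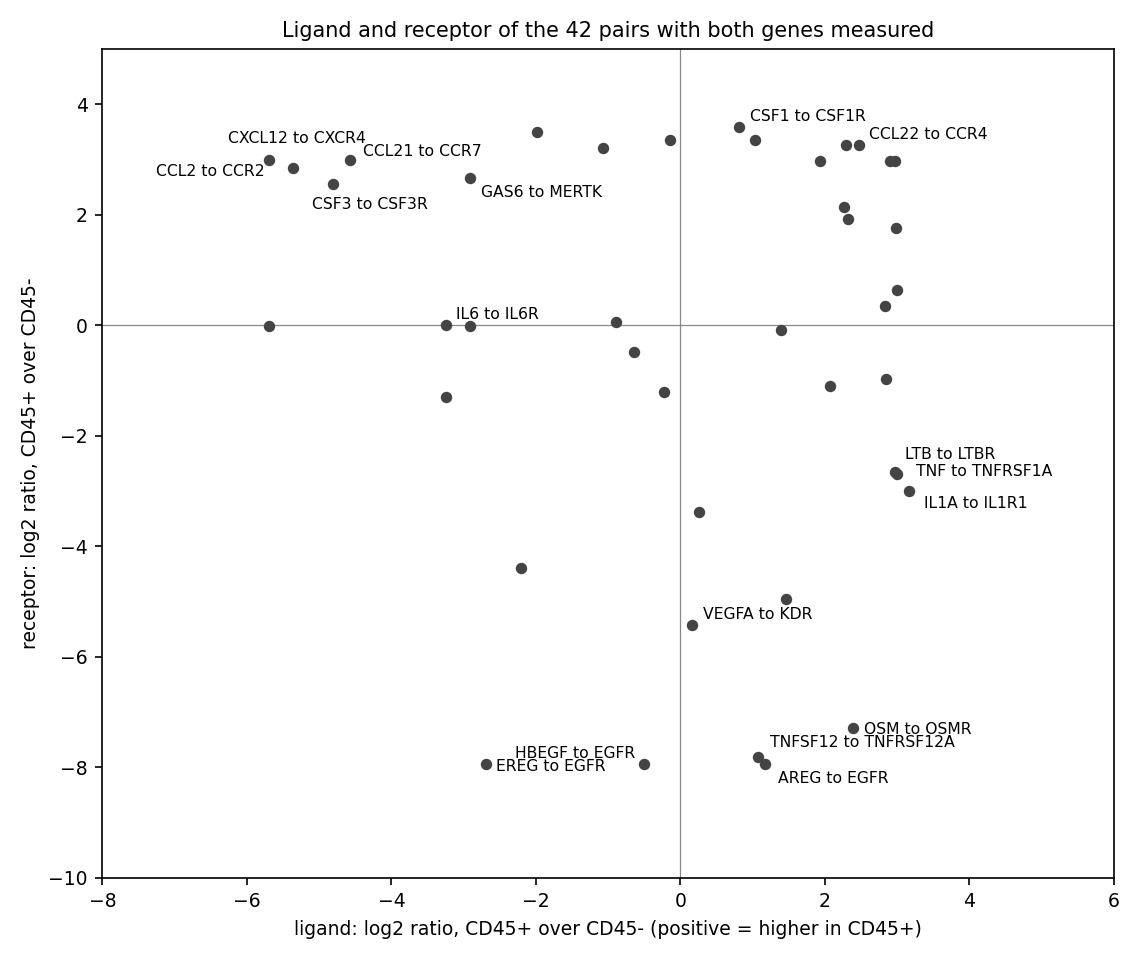
Log2 ratio of the CD45+ side over the CD45- library for the ligand (horizontal axis) and its receptor (vertical axis) in the 42 measured pairs; each point is 1 pair. The lower right holds IL1A with IL1R1, TNF with TNFRSF1A and LTB with LTBR, and the upper left holds CCL2 with CCR2, CXCL12 with CXCR4 and CCL21 with CCR7.

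Danger sensors recognise microbial products and molecules from damaged cells. Of 35 members 18 reached the level limit (median log2 fold 1.89). On the CD45+ side were 5 (27.8%, against 7.25% of all genes) and on the CD45- side 1 (5.56%, against 11.3%). TLR2 stood at 88.1, 148 and 21.3 CPM, and TREM1, an amplifier of myeloid activation, at 63.9, 92.2 and 13.9 CPM with 5.44 to 8.00 CPM in the controls. NLRP3, the inflammasome sensor, stood at 36.2, 45.7 and 6.36 CPM, and NOD2 and TLR7 were the other members. Cluster 3 held at least 47.1% of the UMIs of TLR2, TREM1, NLRP3 and NOD2 in CD45+ 1, whereas neutrophil-like or monocyte or macrophage-like cells led these genes in CD45+ 2. AGER, a receptor abundant in AT1 cells, was the member on the CD45- side at 0.569, 0.899 and 71.7 CPM, and was 737 CPM in AT1-like against 92.2 CPM in AT2-like cells. TLR4, the endotoxin receptor, stood at 124, 139 and 138 CPM, and its adaptor MYD88 at 54.5, 50.3 and 47.6 CPM. AT2-like cells gave 53.4% of the TLR4 UMIs of the CD45- library and 43.2% of all its UMIs.

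Stress genes were counted on neither side about as often as other genes. Over the heat shock, integrated stress and unfolded protein, oxidative and metal, immediate-early and hypoxia lists, between 75.7% and 93.5% of measured members were on neither side, against 81.5% of all genes. Among 37 measured heat shock and chaperone genes, 0 were counted on the CD45+ side (median log2 fold -0.48). On the CD45- side were 7 (18.9%, against 11.3% of all genes). The general chaperones were level: HSP90AB1 stood at 2030, 1912 and 1909 CPM and HSPA8 at 1321, 1678 and 1735 CPM. HSPA5, the main chaperone of the endoplasmic reticulum, stood at 1222, 1368 and 3196 CPM, 2.62 and 2.34 times higher in the CD45- library.

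The 7 heat shock members of the CD45- side came from different cells. FKBP4, a co-chaperone of steroid receptors, stood at 69.3, 61.8 and 490 CPM, with 57.1% of its UMIs in AT2-like cells. HSPA6, a strictly inducible HSP70, stood at 21.1, 28.1 and 229 CPM (10.8 and 8.13 times). Ciliated-like cells held 54.5% of the HSPA6 UMIs at 1332 CPM, compared with 134 CPM in AT2-like cells. The controls nevertheless held more HSPA6 than any graft library, at 784 to 997 CPM. SERPINH1, the collagen chaperone, stood at 0.517, 1.64 and 142 CPM, and CRYAB, a small heat shock protein, at 0.776, 2.06 and 142 CPM. In the CD45+ libraries 70.0% and 45.2% of the few SERPINH1 UMIs lay in the fibroblast-like class, which was 1 cell in each. DNAJA4, DNAJB5 and HSPA4L completed the set.

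The integrated stress and unfolded protein response had 29 of 31 measured members (93.5%) on neither side, the highest share of these 5 lists. ATF4, its central transcription factor, stood at 1622, 1711 and 3207 CPM. NUPR1, a stress-induced chromatin protein, was the CD45- member at 60.4, 96.6 and 448 CPM, with 64.2% of its UMIs in AT2-like cells, and plasma-like cells led it in the CD45+ libraries. SESN1 was the CD45+ member at 11.0, 10.7 and 2.68 CPM (4.12 and 4.01 times), and lost that place under several other scalings.

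Oxidative and metal stress genes counted on a side were all on the CD45- side (median log2 fold -0.40). They were 9 of 37 measured (24.3%, against 11.3% of all genes). MT1X, a metallothionein that binds zinc and copper, stood at 46.3, 110 and 1087 CPM (23.5 and 9.86 times), with 28.5 to 51.6 CPM in the controls. MT1X reached 5558 CPM in the unnamed cluster 19 (led by the basal cell genes KRT5 and KRT17), 5186 CPM in lymphatic endothelial-like and 4443 CPM in smooth muscle or pericyte-like cells, against 1133 CPM in AT2-like cells. The AT2-like value pools several clusters that differed. Cluster 12, with 717 AT2-like cells, had MT1A and MT1X among its leading genes (log2 folds of 4.61 and 2.92 against all other cells). MT1A stood at 4.61, 13.4 and 232 CPM. The antioxidant enzymes PRDX5 (51.0, 70.0 and 555 CPM) and CAT (21.2, 17.7 and 123 CPM) lay mostly in AT2-like cells. GPX2, an epithelial glutathione peroxidase, had 0 UMIs in CD45+ 1 and 6 in CD45+ 2 against 109 CPM in the CD45- library. Against a floor of 3 UMIs in CD45+ 1, GPX2 was 700-fold higher in the CD45- library, with a lower counting limit of 569-fold. Against CD45+ 2 GPX2 was 343-fold higher, with a counting interval from 157 to 934.5. Ciliated-like cells held 67.4% of the GPX2 UMIs of the CD45- library. The mitochondrial superoxide dismutase SOD2 (269, 624 and 928 CPM), the ferritin light chain FTL (1013, 3029 and 1274 CPM) and ACSL4, a lipid enzyme that favours ferroptosis (223, 290 and 461 CPM), were counted on neither side.

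Of 38 measured immediate-early and NF-kB feedback genes 34 (89.5%) were on neither side, with a median log2 fold of 0.05. NFKBIA, the inhibitor that NF-kB itself induces, stood at 4714, 7540 and 8309 CPM, and the controls at 1766 to 2045 CPM. NFKBIA was 10170 CPM in AT2-like cells and 15990 and 16940 CPM in the monocyte or macrophage-like and neutrophil-like cells of the CD45- library. FOS stood at 822, 2000 and 3896 CPM, so its 2 CD45+ libraries differed by a larger factor than the CD45- library did from the higher of them. The CD45+ members were the survival gene BCL2A1 (722, 623 and 123 CPM), the NF-kB subunit REL (485, 483 and 93.1 CPM) and NR4A3. FOSL1, an AP-1 subunit, was the CD45- member at 6.99, 12.4 and 105 CPM.

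Among 34 measured hypoxia response genes, 4 (11.8%) were counted on the CD45- side, a share near the 11.3% of all genes, and 0 on the CD45+ side. EPAS1, the HIF-2 alpha subunit, stood at 18.9, 57.0 and 349 CPM. ENO2, a neuronal form of the glycolytic enzyme enolase, stood at 0.828, 1.11 and 25.4 CPM with 84.1% of its UMIs in ciliated-like cells. LDHA, lactate dehydrogenase A, was counted on neither side at 381, 899 and 166 CPM, and monocyte or macrophage-like cells gave 58.3% of the UMIs of CD45+ 2.

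**Figure D4:**
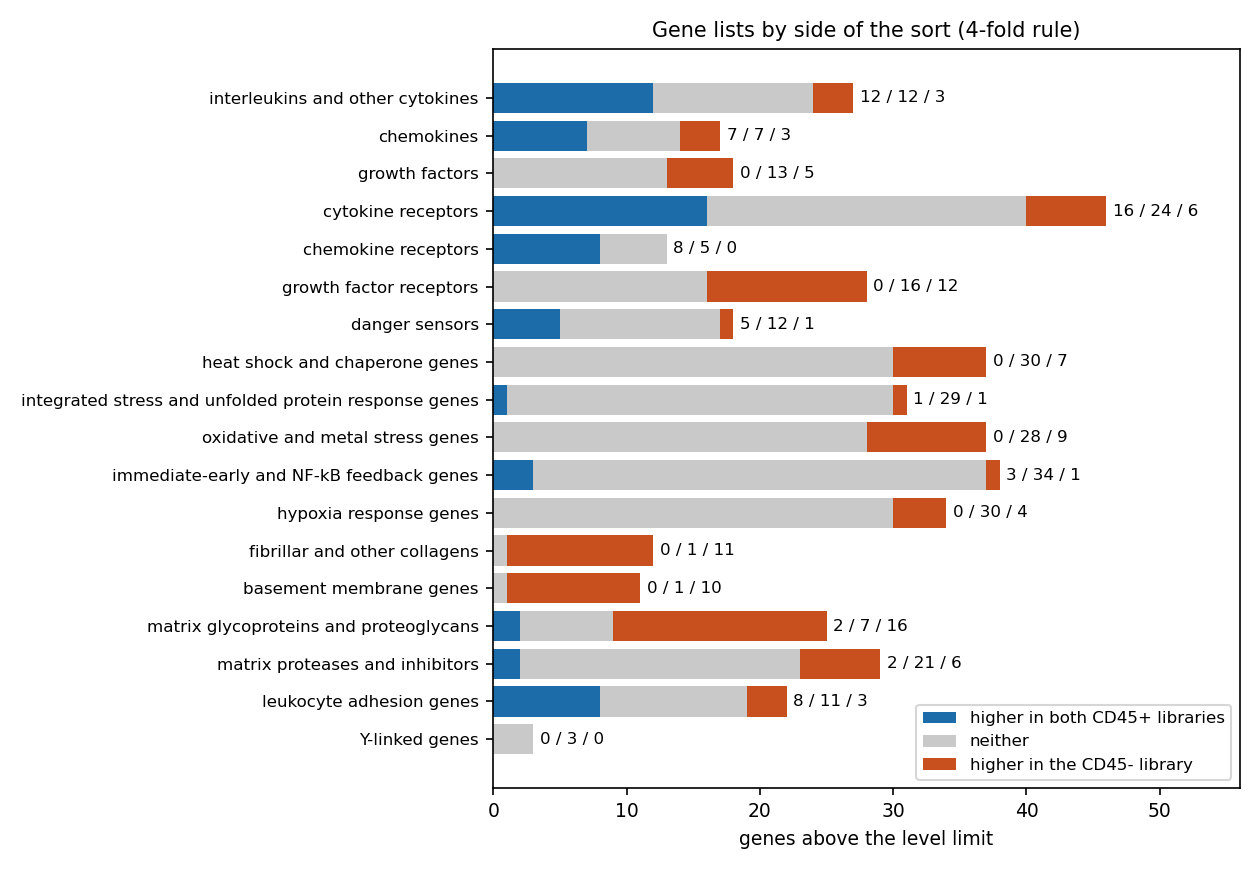
Number of measured members of each of the 18 gene lists counted on the CD45+ side, on the CD45- side or on neither (stacked bars, with the 3 counts printed as CD45+, neither and CD45-). Chemokine receptors have 8, 5 and 0 members in these classes, growth factor receptors 0, 16 and 12, and collagens 0, 1 and 11, while the stress lists have 75.7% to 93.5% of their members on neither side, against 81.5% of all genes. Of all genes 7.25% were on the CD45+ side and 11.3% on the CD45- side.

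Matrix genes were held by the CD45- library almost throughout. Of 12 measured collagens 11 (91.7%) were counted on the CD45- side and 0 on the CD45+ side (median log2 fold -5.07). Of 11 basement membrane genes 10 (90.9%) were on the CD45- side (median log2 fold -4.89), against 11.3% of all genes. Matrix genes near 0 in the CD45+ libraries entered through the CD45- library alone, so the level limit fixed their call. COL3A1, a fibrillar collagen, stood at 1.91, 7.35 and 157 CPM (82.0 and 21.4 times), with 61.2% of its UMIs in fibroblast-like cells at 5305 CPM. COL1A1 stood at 0.983, 1.27 and 64.8 CPM. What little COL3A1 the CD45+ libraries held lay mainly in that 1 fibroblast-like cell of each, at 75.7% and 89.2% of its UMIs. With the other side's clusters left out, COL3A1 stood at 0.466, 0.794 and 177 CPM. The unsorted controls held much more, at 970 to 5360 CPM for COL3A1 and 649 to 3295 CPM for COL1A1. COL17A1, a hemidesmosome collagen, lay in cluster 19 (81.8% of its UMIs), and COL8A1 mostly in AT2-like cells (62.9%, 30.4 CPM in the library).

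Among basement membrane genes, LAMA3, an epithelial laminin chain, stood at 0.155, 0.317 and 111 CPM and was led by ciliated-like cells (43.0%). LAMB3, another laminin chain, stood at 4.76, 5.92 and 79.0 CPM, and in the CD45+ libraries lay mainly in cluster 3 (73.9% and 53.6%). COL4A1, the vascular basement membrane collagen, stood at 3.88, 5.39 and 62.1 CPM, led by smooth muscle or pericyte-like cells (46.0%).

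Of 25 measured matrix glycoproteins and proteoglycans, 16 (64%, against 11.3% of all genes) were counted on the CD45- side (median log2 fold -4.31). On the CD45+ side were 2 (8%), near the 7.25% of all genes. The matricellular genes CCN1 and CCN2, induced by mechanical and serum signals, stood at 0.931, 5.13 and 892 CPM and at 0.517, 0.264 and 234 CPM. CCN1 was highest in AT1-like cells (4660 CPM, 13.2 times the percentage of SFTPC). The controls held 74.9 to 187 CPM of CCN1. The 5 structural cells of CD45+ 2 held 93.8% of its CCN1 UMIs, and without the other side's clusters CCN1 stood at 0.362, 0.318 and 1000 CPM. THBS1, encoding thrombospondin 1, stood at 31.2, 44.5 and 453 CPM, with 7077 CPM in smooth muscle or pericyte-like cells. DCN, the fibroblast proteoglycan decorin, stood at 1.03, 1.90 and 84.1 CPM, and at 0.104, 0.212 and 94.8 CPM without those clusters. The 2 members of the CD45+ side were SRGN, the granule proteoglycan of blood cells (2350, 3597 and 464 CPM), and EMILIN2 (202, 410 and 43.6 CPM, 55.4% in monocyte or macrophage-like cells of CD45+ 2). FN1, encoding fibronectin, stood at 16.8, 54.3 and 55.8 CPM and was counted on neither side. In CD45+ 2 monocyte or macrophage-like cells held 85.9% of the FN1 UMIs.

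Of 29 measured matrix proteases and inhibitors 2 (6.9%) were on the CD45+ side, a share near the 7.25% of all genes. On the CD45- side were 6 (20.7%, against 11.3% of all genes), and 21 were on neither. TIMP3, a metalloprotease inhibitor bound to the matrix, stood at 0.621, 1.32 and 681 CPM (1097 and 516 times), the controls at 105 to 323 CPM, and endothelial-like cells at 1392 CPM. TIMP1, the soluble inhibitor, stood at 399, 978 and 396 CPM. PLAT, the tissue plasminogen activator, stood at 0.724, 0.899 and 78.0 CPM, with 47.6% of its UMIs in lymphatic endothelial-like cells. ADAM8, a leukocyte sheddase, stood at 154, 195 and 25.6 CPM, and SERPINB2 at 26.3, 22.9 and 2.75 CPM. CTSB, the lysosomal protease cathepsin B, stood at 1253, 2766 and 445 CPM and passed the limit only with the other side's clusters left out (1253, 2768 and 279 CPM).

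**Figure D5:**
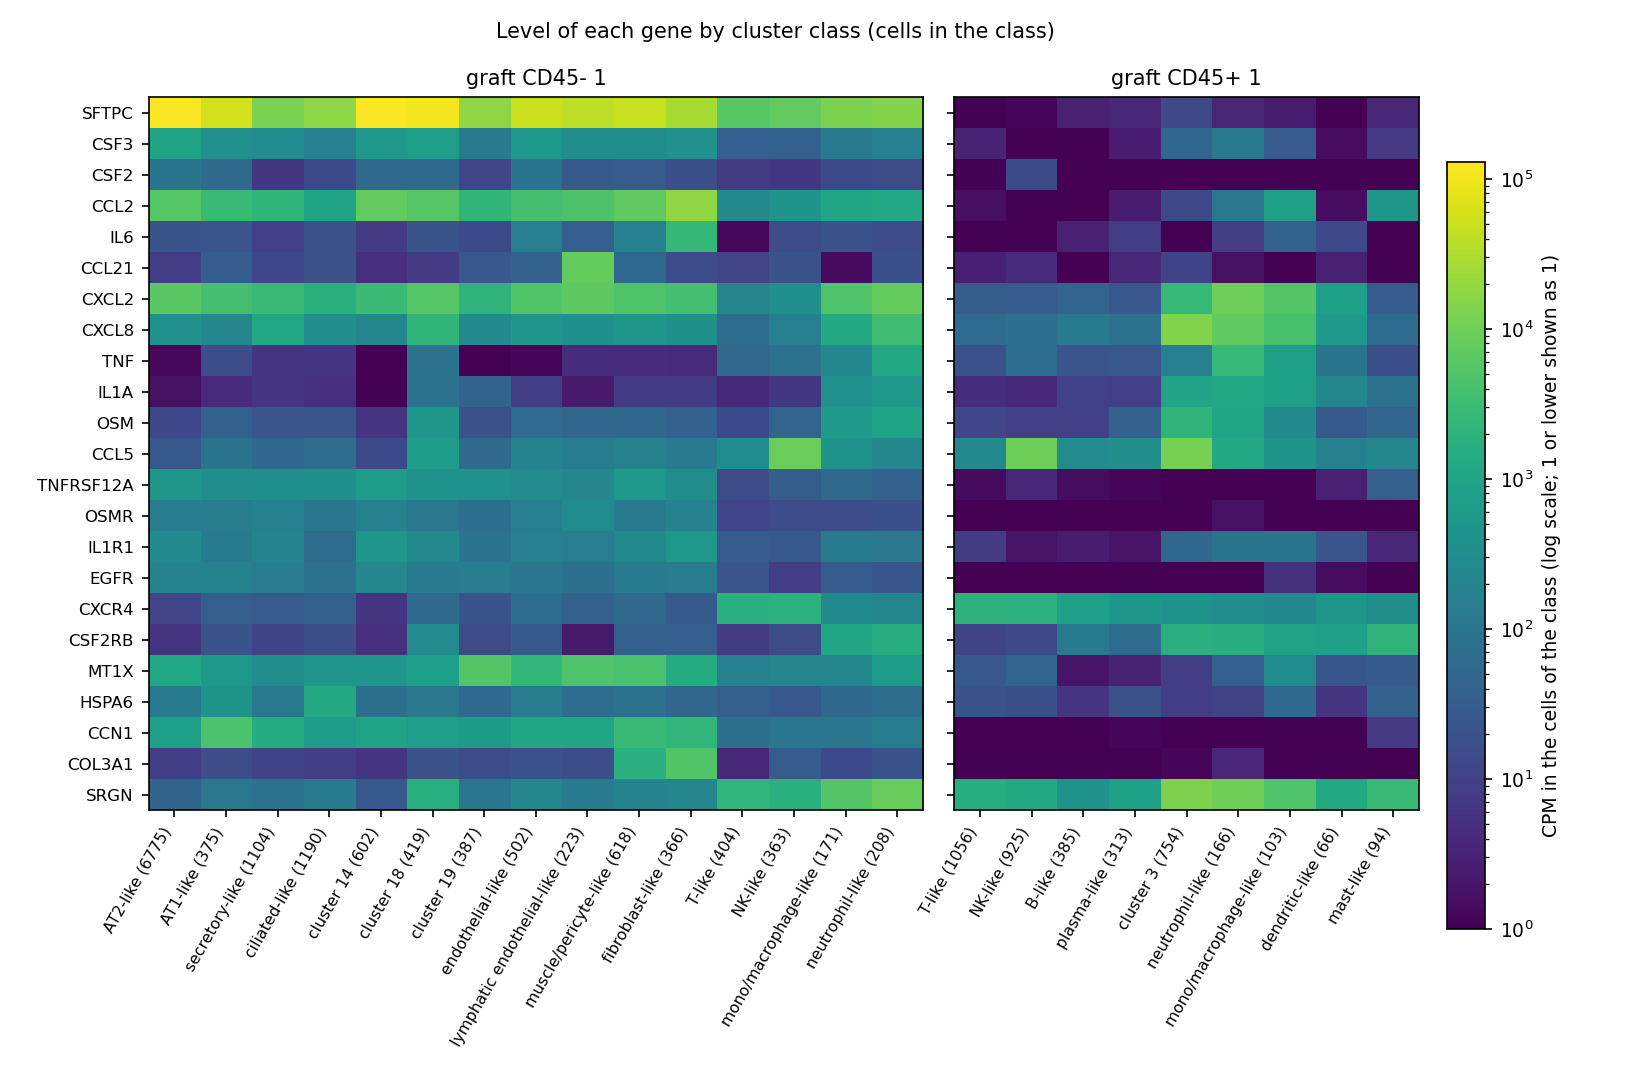
Level (CPM within the class, logarithmic colour scale) of selected genes in the cell classes of the CD45- library (left) and of CD45+ 1 (right), with the number of cells of each class in its label. In the CD45- library CCL2 is 18340 CPM in fibroblast-like and 5849 CPM in AT2-like cells, and TNF lies in neutrophil-like cells of both libraries.

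Of 22 measured leukocyte adhesion genes 8 (36.4%, against 7.25% of all genes) were counted on the CD45+ side (median log2 fold 0.93). The 3 on the CD45- side (13.6%) were near the 11.3% of all genes. The CD45+ members included the integrin chains ITGB2 (172, 284 and 31.7 CPM), ITGB7, ITGA4, ITGAL and ITGAD, and the adhesion receptors ICAM2 (134, 141 and 21.8 CPM) and ICAM3. The CD45- members were ITGAV, the endothelial junction gene ESAM and ITGB6, an epithelial integrin chain that can activate TGF-beta. ITGB6 stood at 0.155, 0.106 and 52.7 CPM, from 3 and 2 UMIs in the CD45+ libraries. AT2-like cells held 41.5% of it, near their 43.2% of all UMIs of the CD45- library. ICAM1, the endothelial ligand of leukocyte integrins, stood at 501, 614 and 1093 CPM and was counted on neither side. In the CD45- library ICAM1 was 1711 CPM in endothelial-like, 1603 CPM in neutrophil-like and 1328 CPM in AT2-like cells, and in cluster 3 it was 3831 CPM there and 5463 CPM in CD45+ 1.

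Over all genes with a symbol and at least 100 CPM, the largest folds were mostly those of cell-type genes. On the CD45- side they were led by the surfactant genes SFTPC, SFTPA1, SFTPD and SFTPB, the secretory genes SCGB1A1 and SCGB3A2, the keratins KRT8 and KRT18, ADIRF and the globin HBB. SCGB1A1, the main club cell secretory protein, stood at 0.155, 0.211 and 12955 CPM. Its 3 UMIs in CD45+ 1 gave a ratio of 83460 with a counting interval from 28560 to 404700. On the CD45+ side they were C1QC, a complement gene of macrophages (102, 124 and 6.96 CPM, 14.6 and 17.8 times), G0S2 (175, 86.0 and 6.03 CPM), UCP2, IL7R, IL2RA, CD28, CD3E, GIMAP6, IKZF3 and JCHAIN. JCHAIN, an antibody chain, stood at 428, 451 and 44.8 CPM, and plasma-like cells held 95.7%, 93.0% and 85.8% of its UMIs.

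With the other side's clusters left out of each sum, 1075 genes were counted on the CD45+ side and 1223 on the CD45- side. By construction, that step lowers leukocyte genes in the CD45- sum and structural genes in the CD45+ sums. The cytokines then counted 16 on the CD45+ side and 4 on the CD45- side of 27, the cytokine receptors 21 and 7 of 46, and the collagens 0 and 11 of 12. The largest change was among matrix proteases, where 9 rather than 2 members lay on the CD45+ side. CCL2, CSF3 and IL6 stayed on the CD45- side at 5000, 645 and 78.6 CPM.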

How the data were processed

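The values deposited by the authors are raw UMI counts, 1 matrix of genes by cells for each of the 6 libraries, per the file headers. Seurat 5.5.3, R 4.2.2 and the build Sscrofa11.1 are listed in the submitters' processing notes, and the aligner is not given in the sources used here. Feature files list a gene only where the library holds a UMI of it, and the graft and control files differ in the genes they list, so genes absent from the graft files are not analysed here. Symbols are those of the files, and 139 Ensembl identifiers took a symbol from a reference table.

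Cells with at least 500 UMIs were kept. UMIs were summed per library and scaled to CPM, a 0 was taken as 3 UMIs in folds, and a gene entered with a mean of at least 5 CPM over the 2 sides. No test was made: the CD45- side has 1 library, and a test would take its spread from the CD45+ libraries alone.

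Cells were clustered on 2000 variable genes, 30 principal components and 15 neighbours with Leiden at resolution 1 and no integration. Clusters were named from marker lists, with naming margins set after seeing the clusters, and 11 clusters (4895 cells) stayed unnamed. No doublet caller was run, and an alternative left out the 2% of cells with the most UMIs. Barcodes are running names, so those shared between libraries could not be counted.

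The comparison, its 18 gene lists (705 genes) and 68 pairs were chosen with earlier results of these data known. Named genes were, per list, up to 6 members on each side and up to 4 on neither by level, all measured pair genes, PTPRC, SFTPC and the 10 largest folds per side with at least 100 CPM, 232 genes in all. Other list members are named only to complete a count, and some genes that the rule picked are left out of the text. Tools were numpy 2.4.6, pandas 2.3.3, scikit-learn 1.9.0, igraph 0.11.9, leidenalg 0.10.2, scipy 1.17.1 and matplotlib 3.10.9 in Python 3.11.15, and edgeR 4.0.16 in R 4.3.3 for TMM factors only.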

Additional observations from a re-analysis of the deposited data

How the results depend on the processing

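The count of genes on the CD45+ side was 719. It became 1994 with a 2-fold and 99 with an 8-fold limit, 412 with a level limit of 20 CPM and 1227 with none beyond 10 UMIs in all. The count on the CD45- side was 1116, and became 1681 with a 2-fold limit, 475 at 20 CPM and 2284 without a level limit. Leaving out either CD45+ library gave 902 to 949 and 1208 to 1241 genes. Of 137 named genes on a side, 0 changed direction under any alternative. The 8-fold limit took 54 of them off their side, PTPRC, TNF, CCL5 and CXCR4 among them, and the 20 CPM limit took 28. Weighting every cell equally took 14 off (among them CSF1R, CCR2 and NUPR1) and added 7, and shifted the median of all genes by -0.14 on the log2 scale. Scaling without the 20 most abundant genes took 8 off, added 2 and shifted that median by -0.12. TMM scaling, median-of-ratios scaling and keeping every deposited cell each took 1 off, the limit of 1000 UMIs per cell took 4, and leaving out the cells with the most UMIs took 5. OSM, CCR1 and CTSB were added without CD45+ 1, and CXCL2, TRIB1 and FOS without CD45+ 2. Genes listed in any graft library, a choice made after seeing the data, gave 726 and 1181 genes. The shares of cells with a PTPRC UMI rose from 29.3%, 24.9% and 3.99% to 68.97%, 63.57% and 9.885% unthinned, and to 48.86%, 42.33% and 6.071% in cells with at least 1000 UMIs thinned to 1000. Those for SFTPC rose from 0.110%, 0.147% and 96.8% to 0.7492%, 1.129% and 99.91% unthinned, and in the CD45- library to 99.46% at 1000 UMIs. The cause of these changes was not tested, beyond the deeper counting that the last 2 settings apply by construction. No paired analysis was possible because the CD45- side has 1 library and the labels give no number that ties it to a CD45+ library. Depth limits what can be said of low genes, since 3 UMIs correspond to 0.155, 0.159 and 0.0751 CPM.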

Other observations

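Some signals and receptors stood below the level limit or outside the compared genes, and in the CD45- library most of their UMIs lay in 1 class. CCL19, a ligand of CCR7 like CCL21, had 830 UMIs there, of which 93.1% lay in fibroblast-like cells, and 59 UMIs in CD45+ 2, where 83.1% lay in its 1 fibroblast-like cell. IL25, an epithelial alarmin of the IL17 family, had 600 UMIs, and 92.8% of them lay in the unnamed cluster 30, a group of 136 cells led by HPGD, IL17RB, LTC4S and ALOX5. CCL26 had 591 UMIs, 77.0% in cluster 19. IL13RA2, a decoy receptor of IL13, had 1118 UMIs, 75.5% in AT2-like cells, the largest class. ACKR1, a scavenging chemokine receptor of venules, had 126 UMIs, 67.5% in endothelial-like cells, and ELN, encoding elastin, had 165 UMIs, 80.6% in smooth muscle or pericyte-like cells. These genes were chosen after their values were seen.

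Matrix transcripts of the CD45- library lay far below those of the unsorted controls although structural clusters gave 84.7% of its cells. DCN stood at 84.1 CPM against 855 to 3826 CPM in the controls, SPARC at 174 against 833 to 3610 CPM and MGP at 102 against 1435 to 4624 CPM. SFTPC went the other way, at 74152 CPM against 33.2 to 168 CPM, and KRT8 stood at 1401 against 10.8 to 23.0 CPM. Fibroblast-like cells were 366 of the 15053 cells of the CD45- library. The part of sorting, specimen and injury in these differences cannot be told apart.

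All 3 measured Y-linked genes were present in the 3 graft libraries and counted on neither side. ZFY stood at 30.7, 31.6 and 24.5 CPM against 0.173 to 0.372 CPM in the controls, and EIF1AY at 20.7, 19.6 and 17.5 CPM against 0.135 to 0.182 CPM. KDM5D stood at 10.7, 7.19 and 2.23 CPM, 4.81 and 3.23 times higher in the CD45+ libraries. In the CD45- library ZFY was 24.0 CPM in structural clusters and 27.6 CPM in leukocyte clusters, with 23.3 CPM in AT2-like and 27.6 CPM in ciliated-like cells. The labels describe the controls as donor lung and give no sex, and which animals gave which library was not analysed here.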
